A study of Mus musculus with 8 samples.

Results

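The genes described here are 10 members of semaphorin signalling in EO771, a mouse breast cancer cell line: the class 3 semaphorins Sema3a, Sema3b, Sema3c and Sema3e, the neuropilins Nrp1 and Nrp2, and the plexins Plxna1, Plxna2, Plxnb2 and Plxnd1. They were chosen by symbol, and all 10 were found among the 49997 genes of the deposited count table. The 8 RNA-seq libraries came from 2 experiments with 2 libraries per group. In one, cells were kept for 48 h with 12-HETE, a lipid made by 12-lipoxygenase, at 100 nM, or with its vehicle, saline containing 2% DMSO. In the other, cells carried an empty vector or a vector that overexpressed ADAR1 p150, the long isoform of an RNA-editing enzyme. All libraries are of the tumour line alone, with no endothelial or immune cells added. The study's legend to its editing comparison of these treatments calls the replicates independent experiments, while the labels do not say whether they were separate cultures, so p-values measure the spread between these libraries.

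Class 3 semaphorins are secreted guidance proteins, first described in growing axons, that also act on vessels, leukocytes and tumour cells. Most of them bind a neuropilin, and the signal enters the cell through a plexin paired with it. SEMA3E can instead bind PLXND1 directly, and PLXNB2 is known mainly as a receptor of membrane-bound class 4 semaphorins. The question taken up here is how the ligands and receptors of this system stood in the tumour cells under each treatment.

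The libraries held 1101767 to 1537037 counts, and the controls were the shallower libraries of each experiment. One gene outside the pathway, AY036118, took 44.4% to 50.3% of each library. A floor of 3 counts corresponded to 1.95 to 2.72 CPM (counts scaled to library size). Floors and the intervals named exact cover counting error only, while the edgeR intervals also include the spread between libraries. Adar, the targeted gene, was at 2 and 8 counts with the vector and at 181 and 140 with ADAR1 p150 (log2 fold change 4.68, edgeR adjusted p = 6.40e-14). Of 6 epithelial markers, Krt8, Krt18, Krt7 and Krt19 were well detected, Epcam had 1 to 4 counts and Cdh1 was at 0. Krt18 was lower under both treatments (edgeR log2 fold change -0.61, adjusted p = 0.0121, and -0.88, adjusted p = 0.00198), and Krt8 and Krt19 were higher with ADAR1 p150 (0.59 and 0.60, adjusted p = 0.0314 and 0.0465). The 6 endothelial markers summed to at most 9.53 normalised CPM, with Erg at 0 in every library. The leukocyte list summed to 13.1 to 14.8 normalised CPM with 12-HETE, against 22.4 to 24.9 with vehicle, and was made up mainly of Cd68 and Csf1r, with Adgre1 at 0 and Ptprc at 0 or 1 count. The endothelial sum was 0.742 to 2.07 with 12-HETE against 6.43 to 8.30 with vehicle, that of 6 fibroblast markers, mainly Dcn, ran from 8.85 to 40.9 over the libraries, and that of 4 neuronal markers was at most 2.41. The part of these differences in the results was not tested.

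Sema3c was higher after 12-HETE. It lies on the plus strand of chromosome 5 (GRCm38, 17574816 to 17730268), and no other gene of the RefSeq annotation overlaps it. Elsewhere in the study this gene was disrupted with Cas9, and the 2 guide sites listed for it are shown to place the targeted coding sequence. No library of deleted cells is among the 8. The sites are written 5′ to 3′ with the guide in lower case and the PAM, the motif that Cas9 needs beside its target, in capitals. Guide 1 matches the minus strand at chr5:17653726-17653748, in exon 3 of 18, and guide 2 the plus strand at chr5:17670471-17670493, in exon 6. Both sites are coding.
Guide 1: ggacagactaaagtactcagAGG
Guide 2: tctaagtgtgaatctggcaaAGG

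The vehicle libraries held 12 and 28 Sema3c counts, and the 12-HETE libraries 57 and 46. Scaled by TMM, which aligns libraries on the bulk of their genes, these were 9.96 and 22.5 normalised CPM against 39.4 and 34.1. Both 12-HETE libraries stood above both vehicle libraries, as for 32.9% of the genes tested, and the vehicle pair was the more spread. The level was 2.25-fold higher, or 1.17 on the log2 scale (SE 0.32, edgeR adjusted p = 0.00467 over 6901 tested genes). Sema3c was thus the 1 member of 5 tested that was called, at an adjusted p under 0.05 and 2-fold, where 14.4% of all tested genes were called and 6.12% were called higher. On adjusted p alone it was again 1 of 5, against 29.3% of all genes.

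The call for Sema3c depended on single libraries. Without vehicle replicate 4 the log2 fold change was 0.70 (edgeR adjusted p = 0.153), and without 12-HETE replicate 4 it was 1.07 (adjusted p = 0.0564). DESeq2 gave 1.15 with an adjusted p of 0.0819.

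With ADAR1 p150, Sema3c did not pass the test. Its counts were 10 and 21 in the vector libraries against 43 and 29 in the ADAR1 p150 libraries, or 8.85 and 17.8 against 29.3 and 21.3 normalised CPM. Both ADAR1 p150 libraries were above both vector libraries, as for 33.7% of the genes tested. The log2 fold change was 0.92 (95% interval 0.20 to 1.64, edgeR adjusted p = 0.0539). Leaving out vector replicate 2 gave 1.51 (adjusted p = 0.0235) and leaving out ADAR1 p150 replicate 2 gave 1.14 (adjusted p = 0.0424), both past the threshold in edgeR. The effects of the treatments on Sema3c were not shown to differ (12-HETE effect minus ADAR1 p150 effect 0.25 on the log2 scale, 95% interval -0.74 to 1.25, edgeR adjusted p = 0.796), and 15.0% of all genes passed that test.

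By mean level, Sema3c was at 36.8 ± 3.72 normalised CPM with 12-HETE, 25.3 ± 5.71 with ADAR1 p150, 16.2 ± 8.88 with vehicle and 13.3 ± 6.32 with vector (SD, n = 2 libraries each). The 12-HETE libraries overlapped no other group, a pattern whose share over all genes was not counted. Between groups of different experiments, treatment and experiment cannot be told apart. ADAR1 p150 overlapped vehicle, and vehicle overlapped vector, for which the log2 fold change was -0.28 (vector against vehicle, edgeR adjusted p = 0.815).

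**Figure D1:**
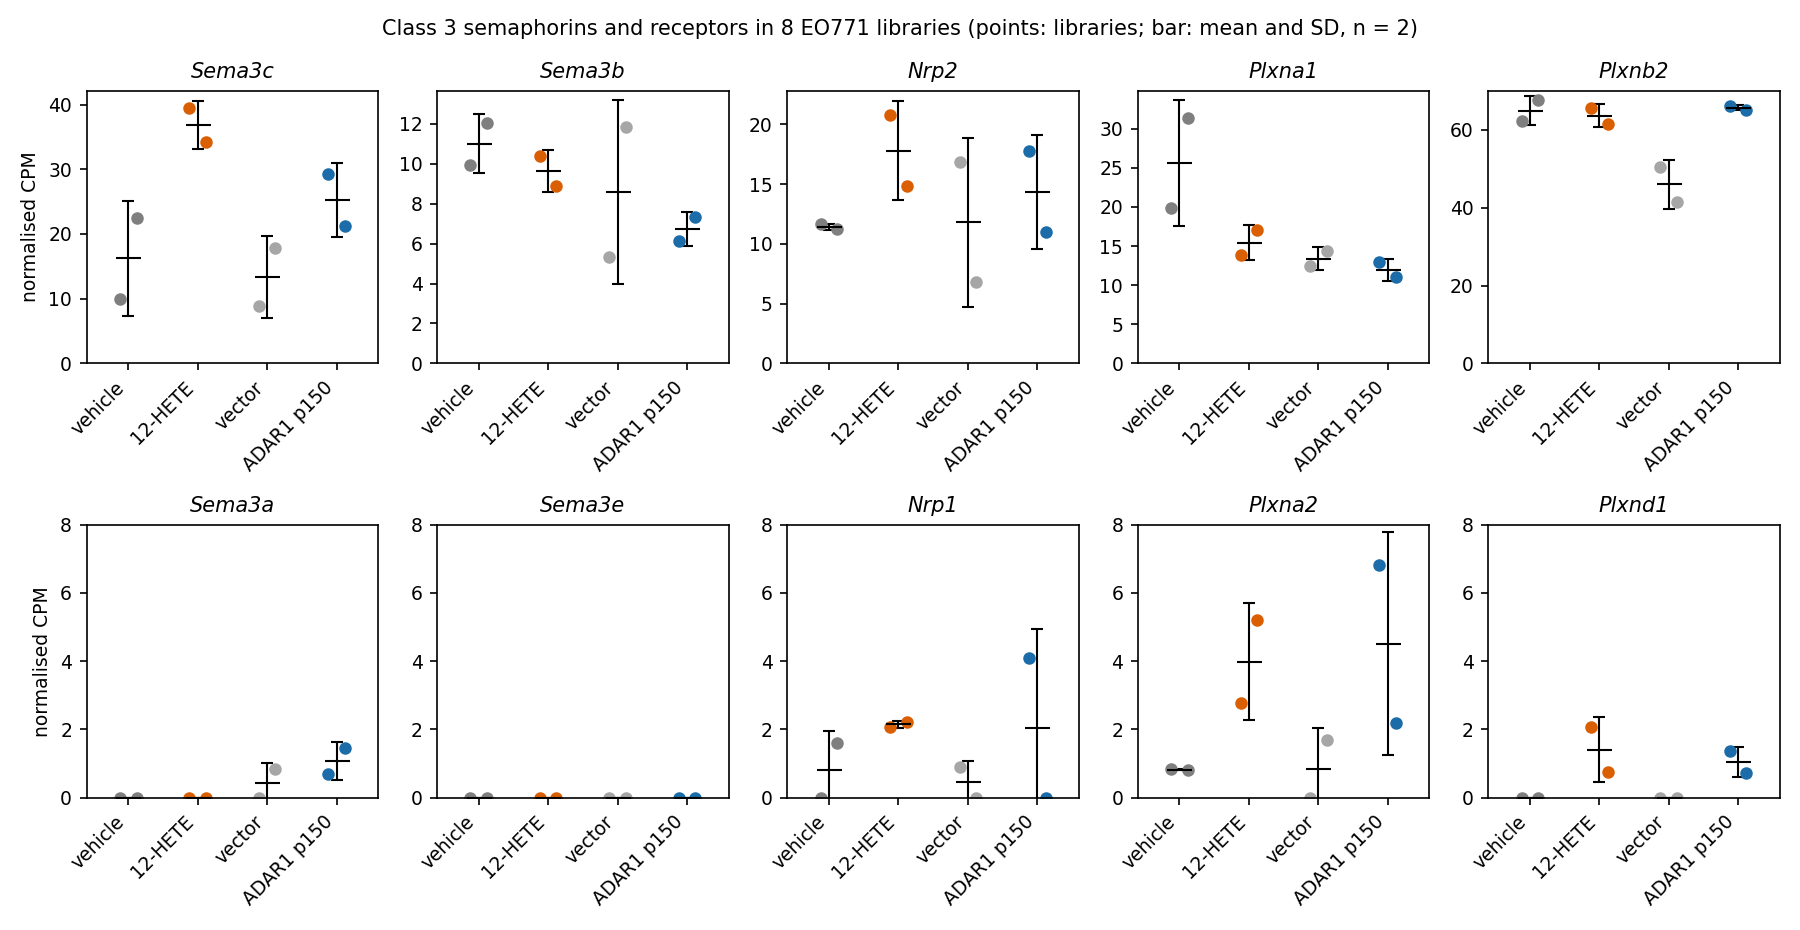
Normalised CPM (vertical axis) of the 10 members in the 4 groups (horizontal axis), with 1 point per library and a bar for the mean with its SD of 2 libraries, drawn down to 0 at most; Sema3a, Sema3e, Nrp1, Plxna2 and Plxnd1 are drawn on an axis from 0 to 8 CPM. Sema3c lies at 9.96 and 22.5 CPM with vehicle and at 39.4 and 34.1 CPM with 12-HETE, and Sema3e is at 0 throughout.

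The other class 3 members were low or at 0. Sema3b, a neuropilin ligand studied as a tumour suppressor, lies on the minus strand of chromosome 9 (107597674 to 107609241). It had 12 and 15 counts under vehicle, 15 and 12 under 12-HETE, 6 and 14 in the vector libraries and 9 and 10 in those of ADAR1 p150, and the groups overlapped in both experiments. The log2 fold change was -0.19 for 12-HETE (95% interval -1.04 to 0.67, edgeR adjusted p = 0.790) and -0.36 for ADAR1 p150 (-1.34 to 0.62, adjusted p = 0.648). No change was detected, and the data allow differences within these bounds. The span of Sema3b shares 317 bases with Lsmem2, a gene on the same strand with 83 to 173 counts.

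Sema3a, the founding axon-repelling member, had no count under vehicle or 12-HETE, 0 and 1 in the vector libraries and 1 and 2 with ADAR1 p150. Sema3e had 0 counts in every library, which allows up to 2.72 CPM in the shallowest. Of the class 3 genes outside the 10, Sema3d and Sema3g were also at 0 and Sema3f had 1 to 6 counts. Sema3c accordingly made up 12 of 26 and 28 of 49 class 3 counts in the vehicle libraries and 57 of 78 and 46 of 63 in the 12-HETE libraries, 10 of 18 and 21 of 37 in the vector libraries and 43 of 56 and 29 of 45 in the ADAR1 p150 libraries.

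Of the neuropilins, Nrp2 could be tested and Nrp1 was near the floor. Nrp2, a co-receptor of SEMA3C, SEMA3F and VEGF-C, lies on the plus strand of chromosome 1 (62703317 to 62818692). Its counts were 14 and 14 under vehicle, 30 and 20 under 12-HETE, 19 and 8 in the vector libraries and 26 and 15 with ADAR1 p150. The 12-HETE libraries were both above the vehicle libraries, as for 32.9% of the genes tested, while ADAR1 p150 and vector overlapped. Neither comparison passed (log2 fold change 0.64, SE 0.39, edgeR adjusted p = 0.225 for 12-HETE, and 0.30, SE 0.40, adjusted p = 0.648 for ADAR1 p150). The ADAR1 p150 value changed sign without vector replicate 2 (-0.22) or without ADAR1 p150 replicate 1 (-0.077).

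Nrp1, the neuropilin of SEMA3A and VEGF-A, lies on the plus strand of chromosome 8 (128358591 to 128505476). It had 0 and 2 counts under vehicle, 3 and 3 under 12-HETE, 1 and 0 in the vector libraries and 6 and 0 with ADAR1 p150. The ratio of the normalised sums was 2.63 (exact 95% interval 0.470 to 26.6) for 12-HETE and 4.90 (exact 95% interval 0.594 to 225) for ADAR1 p150, so no difference was detected at this depth.

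Plxna1, which pairs with neuropilins as the signalling receptor, lies on the minus strand of chromosome 6 (89316313 to 89362613). The vehicle libraries held 24 and 39 counts and the 12-HETE libraries 20 and 23, or 19.9 and 31.4 against 13.8 and 17.1 normalised CPM. Both 12-HETE libraries were below both vehicle libraries, as for 31.2% of the genes tested. The log2 fold change of -0.73 (95% interval -1.39 to -0.082) did not pass (edgeR adjusted p = 0.0826). It did pass without vehicle replicate 4 (-1.03, adjusted p = 0.0452), and without vehicle replicate 5 it was -0.44 (edgeR adjusted p = 0.505).

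In the other experiment Plxna1 had 14 and 17 counts with the vector and 19 and 15 with ADAR1 p150, and the groups overlapped (log2 fold change -0.16, edgeR adjusted p = 0.812). Both vector libraries, at 12.4 and 14.4 normalised CPM, were below both vehicle libraries, as were those of Plxnb2 and 23.3% of all tested genes. That comparison of controls gave -0.93 for Plxna1 (edgeR adjusted p = 0.284). It called none of the 5 members in edgeR or DESeq2 (2 in edgeR and 0 in DESeq2 at an unadjusted p under 0.05), against 0.0435% of all genes, or 0.116% on adjusted p alone.

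Plxnb2 was the most abundant member. It lies on the minus strand of chromosome 15 (89155546 to 89182018). Its counts were 75 and 84 under vehicle, 95 and 83 under 12-HETE, 57 and 49 in the vector libraries and 97 and 89 with ADAR1 p150. The vector libraries were the lowest, at 50.4 and 41.5 normalised CPM, and the other 3 groups lay between 61.6 and 67.6. Plxnb2 was higher with ADAR1 p150 than with vector by 0.52 on the log2 scale (SE 0.19, 1.43-fold, edgeR adjusted p = 0.0427), which is under 2-fold.

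With ADAR1 p150, therefore, none of the 5 tested members was called by edgeR (2 had an unadjusted p under 0.05, and DESeq2 had 0 by either criterion), against 12.8% of all genes, and 1 of 5 passed on adjusted p alone, against 25.6%. The result for Plxnb2 was lost with DESeq2 (adjusted p = 0.329), with RLE factors (edgeR adjusted p = 0.0853) and whichever of the 4 libraries was left out (log2 fold change 0.38 to 0.66). With 12-HETE it was -0.028 (95% interval -0.39 to 0.34, edgeR adjusted p = 0.931).

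Plxna2, another A-type plexin (chromosome 1, plus strand, 194619791 to 194816869), and Plxnd1 (chromosome 6, minus strand, 115954811 to 115995339) had too few counts for the test. Plxna2 had 1 and 1 under vehicle, 4 and 7 under 12-HETE, 0 and 2 in the vector libraries and 10 and 3 with ADAR1 p150. The treated libraries were thus above their controls in both experiments. This held for 32.9% (12-HETE) and 33.7% (ADAR1 p150) of the genes tested, which, unlike Plxna2, average 10 counts or more. The share among genes with as few counts as Plxna2 was not computed. The ratio of the normalised sums was 4.82 (exact 95% interval 1.05 to 44.8) for 12-HETE and 5.31 (exact 95% interval 1.20 to 48.4) for ADAR1 p150, intervals that leave out the spread between libraries. With every gene that had a count in the fit, Plxna2 did not pass (edgeR adjusted p = 0.190 and 0.160). Plxnd1 had 0 counts in the 4 control libraries, 3 and 1 with 12-HETE and 2 and 1 with ADAR1 p150, none above the floor.

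**Figure D2:**
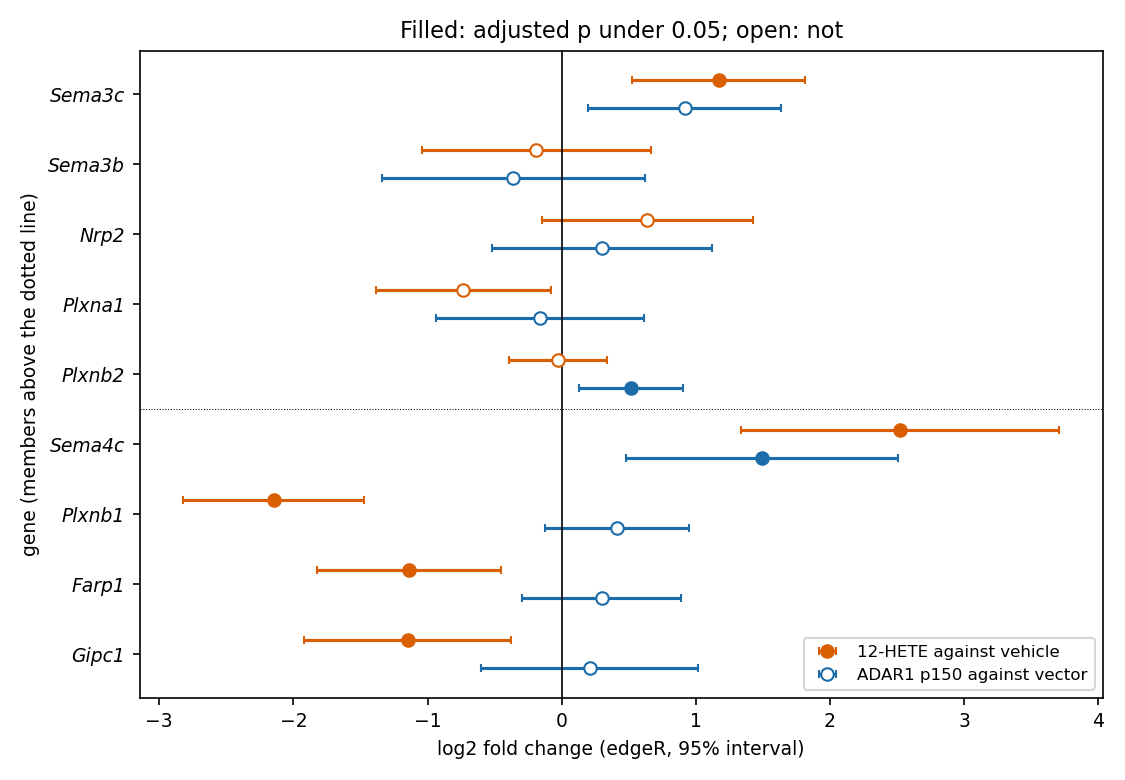
Log2 fold change (horizontal axis) with its 95% interval from edgeR for the 5 tested members and for the 4 related genes called in either comparison; filled points passed an adjusted p of 0.05. Among the members, Sema3c with 12-HETE (1.17) and Plxnb2 with ADAR1 p150 (0.52) are filled.

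Levels of different genes were set side by side per kb of exon. Over the 8 libraries the mean was 7.78 normalised CPM per kb for Plxnb2, 3.21 for Sema3c, 1.88 for Sema3b, 1.84 for Plxna1 and 1.17 for Nrp2. Neighbours among these 5 overlapped in their ranges. Every library's Nrp2 level was above every level of the next member, Plxna2, whose mean was 0.148. In the vehicle libraries Sema3c averaged 2.27 and Plxna1 2.83 CPM per kb (SD 1.24 and 0.89). The averages were 5.15 and 1.71 in the 12-HETE libraries, 1.87 and 1.48 in the vector libraries and 3.54 and 1.32 with ADAR1 p150. Exon lengths are unions over GENCODE transcripts, and which isoforms these cells use was not measured.

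**Figure D3:**
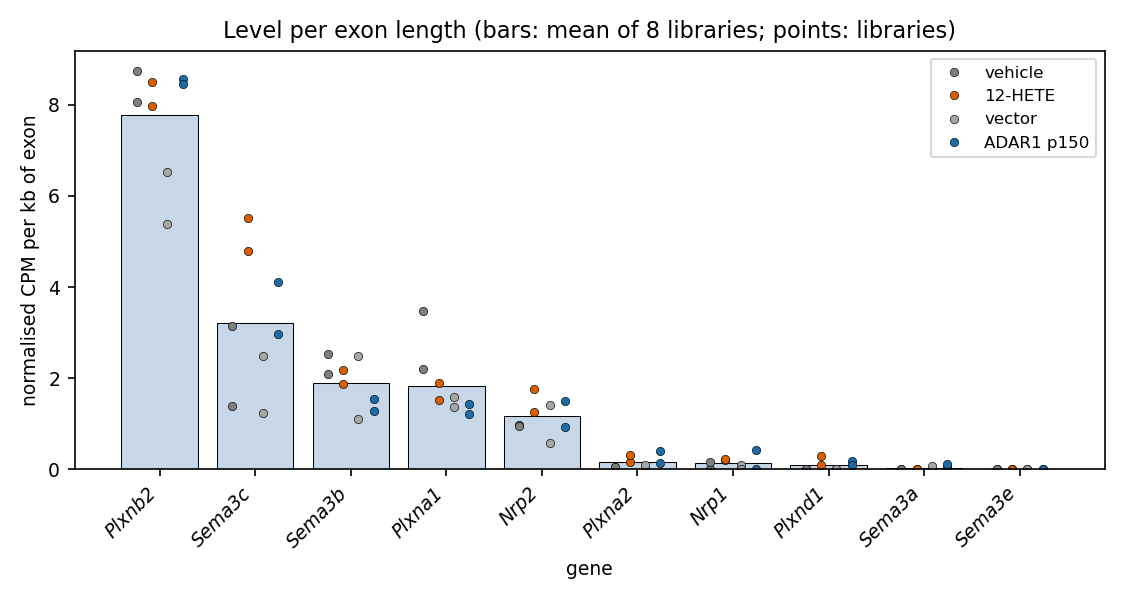
Normalised CPM per kb of exon (vertical axis) of each member (horizontal axis), with the mean of the 8 libraries and a point for each library, coloured by group. Plxnb2 has the highest mean (7.78), followed by Sema3c (3.21), and no library exceeds 0.418 for the last 5 members.

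Around the members, 75 related genes in 6 lists were examined, of which 29 could be tested. With 12-HETE, 1 was called higher and 3 lower, against 6.12% and 8.25% of all genes. On adjusted p alone 3 were higher and 7 lower, against 15.1% and 14.2%. With ADAR1 p150, 1 was called higher and 0 lower in edgeR (1 lower at an unadjusted p under 0.05, and DESeq2 called 0 in all), against 8.11% and 4.69%, and 2 were higher on adjusted p alone, against 14.5% (lower, 11.1%). The median log2 fold change of the 29 was -0.10 and 0.21, beside 0.00437 and 0.066 over all genes, and that of the 5 tested members was -0.028 and 0.30.

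Among 13 other semaphorins, 2 could be tested. Sema4c, a membrane-bound ligand of PLXNB2, had 2 and 3 counts under vehicle, 14 and 20 under 12-HETE, 7 and 3 in the vector libraries and 18 and 17 with ADAR1 p150. In each experiment the treated libraries were above the controls, as for 32.9% (12-HETE) and 33.7% (ADAR1 p150) of the genes tested. Without the treated libraries the gene would not have reached the count minimum. It rose by 2.52 on the log2 scale with 12-HETE (SE 0.58, edgeR adjusted p = 0.00102) and by 1.49 with ADAR1 p150 (SE 0.50, adjusted p = 0.0249). The ratio of the normalised sums was 5.96 (exact 95% interval 2.32 to 19.5) and 2.86 (exact 95% interval 1.38 to 6.47). The ADAR1 p150 result was lost without vector replicate 2 (0.98, edgeR adjusted p = 0.274) and with no count minimum (1.39, adjusted p = 0.0812), where the 12-HETE result passed (2.47, adjusted p = 0.000923). DESeq2 gave no adjusted p for Sema4c in either comparison, and with ADAR1 p150 its unadjusted p was not under 0.05. For ADAR1 p150, Sema4c could not be tested when either ADAR1 p150 library was left out. For 12-HETE it could not be tested without 12-HETE replicate 5 or in a fit of 4 libraries. With 10 counts required in every library it could be tested in neither comparison. Sema4g, with 15 to 25 counts, did not pass (edgeR adjusted p = 0.638 and 0.774).

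Plxnb1, the receptor of SEMA4D, fell with 12-HETE. The vehicle libraries held 43 and 43 counts, the 12-HETE libraries 16 and 6, the vector libraries 31 and 32 and the ADAR1 p150 libraries 58 and 45. Groups did not overlap in either experiment. The displacement was downward with 12-HETE, as for 31.2% of the genes tested, and upward with ADAR1 p150, as for 33.7%. The log2 fold change was -2.15 with 12-HETE (SE 0.33, edgeR adjusted p = 4.13e-06) and 0.41 with ADAR1 p150 (SE 0.26, adjusted p = 0.270). Plxnc1, the receptor of SEMA7A, had 7 to 20 counts and did not pass (edgeR adjusted p = 0.900 and 0.143).

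Of 13 other ligands and co-receptors of neuropilins, 4 could be tested. Vegfa and Vegfb, vessel growth factors, were lower with 12-HETE by less than 2-fold (log2 fold change -0.91 and -0.98, edgeR adjusted p = 0.0472 and 0.0397). Neither was stable, since Vegfa did not pass without vehicle replicate 5 (-0.53) or without either 12-HETE library (-0.68 and -1.14), Vegfb without vehicle replicate 4 (-0.65) or 12-HETE replicate 4 (-0.50), and DESeq2 passed neither. For Vegfa the counts were 19 and 34 under vehicle, 14 and 18 under 12-HETE, 20 and 18 in the vector libraries and 38 and 34 with ADAR1 p150. Flt1, a VEGF receptor, had 107 and 106 counts with the vector against 192 and 198 with ADAR1 p150 and was higher there (log2 fold change 0.58, edgeR adjusted p = 0.00253, DESeq2 adjusted p = 0.0876). With 12-HETE it was at -0.14 (adjusted p = 0.522). Met, a receptor tyrosine kinase that can associate with plexins, had 8 to 24 counts and did not pass (edgeR adjusted p = 0.748 and 0.972).

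Furin, a protease that cleaves class 3 semaphorins, was lower with 12-HETE. It had 123 and 128 counts under vehicle against 91 and 90 (log2 fold change -0.66, SE 0.16, edgeR adjusted p = 0.00153). With the vector it had 110 and 110 and with ADAR1 p150 160 and 177 (log2 fold change 0.32, adjusted p = 0.107). Pcsk7, the other tested protease of 4 listed, did not pass (edgeR adjusted p = 0.989 and 0.354).

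Of 37 genes of plexin signalling inside the cell, 19 could be tested. With 12-HETE 2 were higher and 3 lower on adjusted p, near the 15.1% and 14.2% of all tested genes, and with ADAR1 p150 none passed in edgeR or DESeq2 (3 and 0 at an unadjusted p under 0.05), against 25.6% of all genes in edgeR. Farp1, an exchange factor that relays plexin A signals, fell with 12-HETE (21 and 45 against 15 and 19 counts, log2 fold change -1.14, edgeR adjusted p = 0.00968). Gipc1, an adaptor that binds the neuropilin tail, also fell (18 and 27 against 13 and 10 counts, -1.15, adjusted p = 0.0202). The test for Farp1 was lost without vehicle replicate 5 (edgeR -0.59, adjusted p = 0.381) or 12-HETE replicate 4 (-0.92, adjusted p = 0.125). For Gipc1 it was lost without vehicle replicate 5 or either 12-HETE library (log2 fold change -0.92, -1.28 and -1.01), and DESeq2 passed neither gene. Rras2, a small GTPase, was lower (-0.75), and Mical3 (0.79) and the integrin subunit Itgb1 (0.41) were higher, each by less than 2-fold, and these 3 did not pass with DESeq2, nor in edgeR whichever library of the comparison was left out (log2 fold changes -0.87 to -0.69, 0.71 to 0.88 and 0.32 to 0.46). Rac1, a GTPase engaged by plexins, had 53 to 95 counts and did not pass (edgeR adjusted p = 0.719 and 0.972).

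Several receptor genes share their span with a gene annotated on the opposite strand. No source used here states how the counting treated strand, so counts of such a pair may not be separate measures. These neighbours were chosen after their values were seen. Gm32643, a non-coding gene within the span of Nrp1 (chromosome 8, 128453055 to 128492985), had 6 and 7 counts under vehicle, 34 and 42 under 12-HETE, 11 and 7 in the vector libraries and 38 and 49 with ADAR1 p150. The log2 fold change was 2.34 and 1.97 (edgeR adjusted p = 1.77e-05 and 7.86e-05), but the gene reached the count minimum only through the treated libraries. With no minimum, where this does not apply, it was 2.29 and 1.87 (edgeR adjusted p = 1.50e-06 and 3.98e-05). Nrp1 itself never exceeded 6 counts.

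Within Nrp2, 4930487H11Rik (chromosome 1, 62790918 to 62794732) had 5 and 3 counts under vehicle, 18 and 19 under 12-HETE, 7 and 5 in the vector libraries and 26 and 24 with ADAR1 p150. It too reached the count minimum only through the treated libraries (log2 fold change 1.99 and 1.75, edgeR adjusted p = 0.00224 and 0.00243), and with no minimum the values were 1.94 and 1.64 (edgeR adjusted p = 0.00519 and 0.00825). Gm29083, also within Nrp2, rose with ADAR1 p150 (8 and 9 against 24 and 30 counts, log2 fold change 1.37, edgeR adjusted p = 0.00958) and overlapped between vehicle and 12-HETE (0.23, adjusted p = 0.695). The test for 4930487H11Rik was lost without vehicle replicate 5 (1.58) for 12-HETE, without vector replicate 2 (1.49) for ADAR1 p150, and with DESeq2 for 12-HETE (adjusted p = 0.0550). For ADAR1 p150, DESeq2 gave this gene no adjusted p. That for Gm29083 with ADAR1 p150 was lost with DESeq2 (adjusted p = 0.139) and in edgeR without either vector library (1.31 and 1.41) or ADAR1 p150 replicate 2 (1.16). Gm46202, within Plxna2, was under the count minimum, with 1 and 2 under vehicle, 16 and 10 under 12-HETE, 3 and 2 in the vector libraries and 6 and 14 with ADAR1 p150.

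At the other plexins, Gm40415, which overlaps Plxna1, had 250 to 306 counts and did not pass (edgeR adjusted p = 0.786 and 0.233). Gm7628, which overlaps Plxnb1, had 187 and 171 counts under vehicle and 70 and 69 under 12-HETE, and like Plxnb1 it fell (log2 fold change -1.55, edgeR adjusted p = 6.25e-10). With ADAR1 p150 it was at -0.16 (adjusted p = 0.432). Sema3c, Sema3e and Plxnd1 have no overlapping gene in the annotation, and Plxnb2 has a microRNA on its own strand, at 0 counts.

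**Figure D4:**
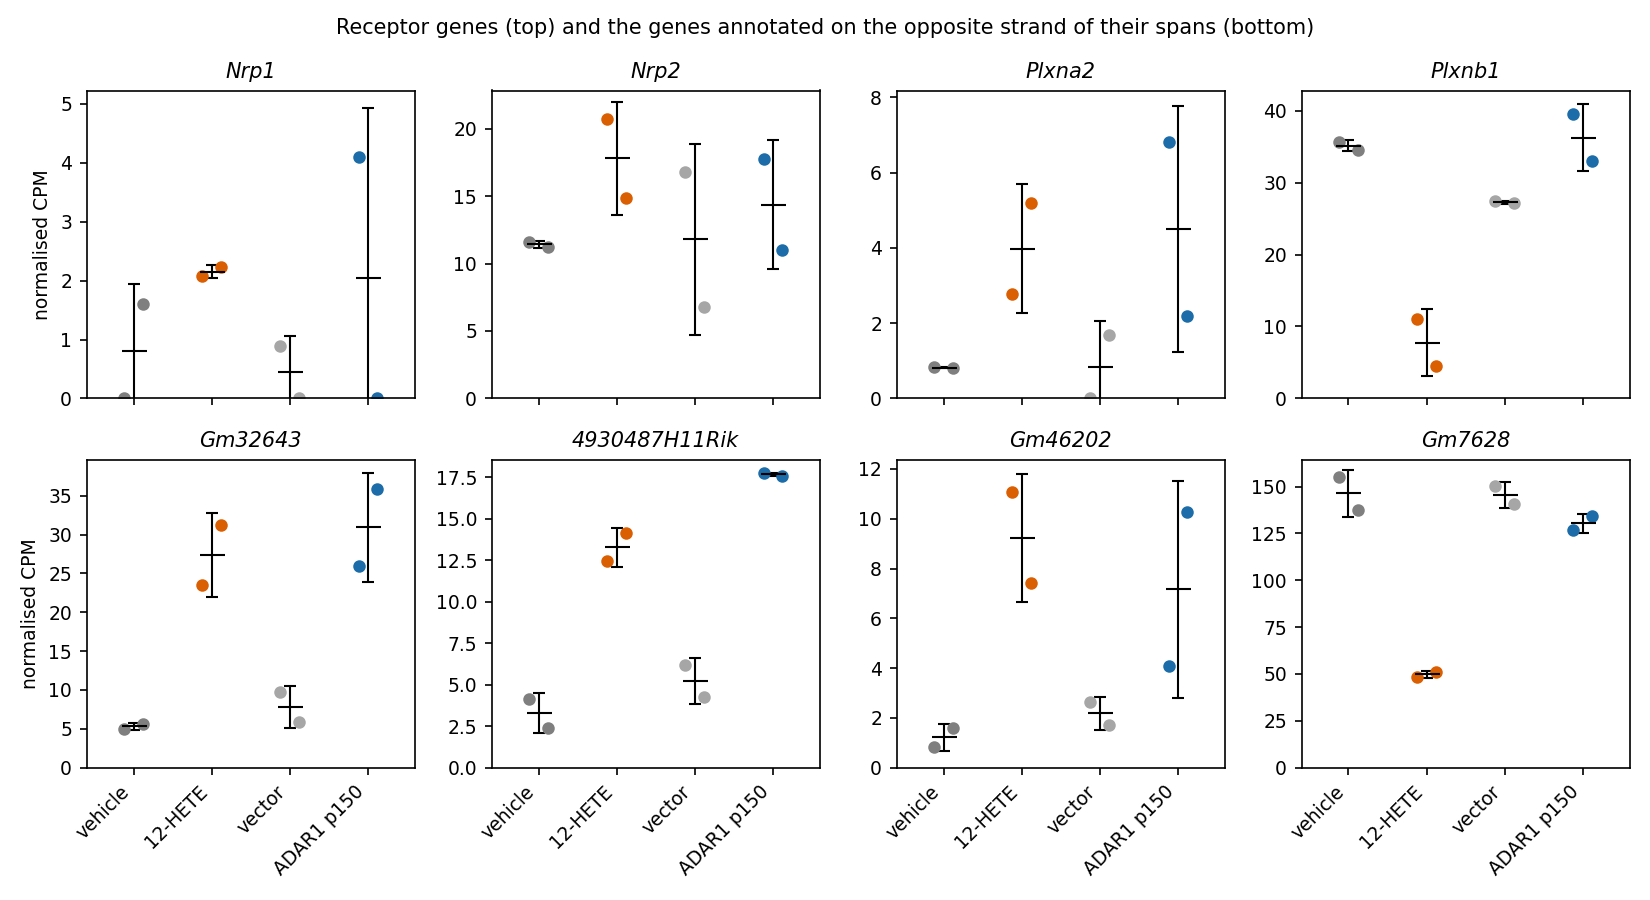
Normalised CPM (vertical axes, which differ between panels) of receptor genes and of a gene annotated on the opposite strand of each span, with 1 point per library and the mean and SD of 2 libraries, drawn down to 0 at most. Gm32643 and 4930487H11Rik are higher in both treated groups than in their controls, and Gm7628 and Plxnb1 are lower with 12-HETE.

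The genes whose level was most like that of Sema3c were ranked by Pearson correlation of log2(normalised CPM + 1) over the 8 libraries, among 2218 genes averaging at least 50 counts. They were P4hb (r = 0.970), an enzyme of disulfide bond formation, Cul3 (r = 0.947), a ubiquitin ligase scaffold, Eif2s3x (r = 0.947), a translation initiation factor subunit, Ccnd1 (r = 0.935), which encodes cyclin D1, and Gm32313 (r = 0.933). The points share libraries, groups and depth, and the genes were picked for this value, so it is a description only. Among the members, r with Sema3c was 0.451 for Plxnb2, 0.325 for Nrp2, 0.249 for Sema3b and -0.0159 for Plxna1. P4hb had 34 and 57 counts under vehicle, 88 and 84 under 12-HETE, 27 and 46 in the vector libraries and 91 and 51 with ADAR1 p150. As for Sema3c, vehicle replicate 4 and vector replicate 1 were the lower library of their pair.

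**Figure D5:**
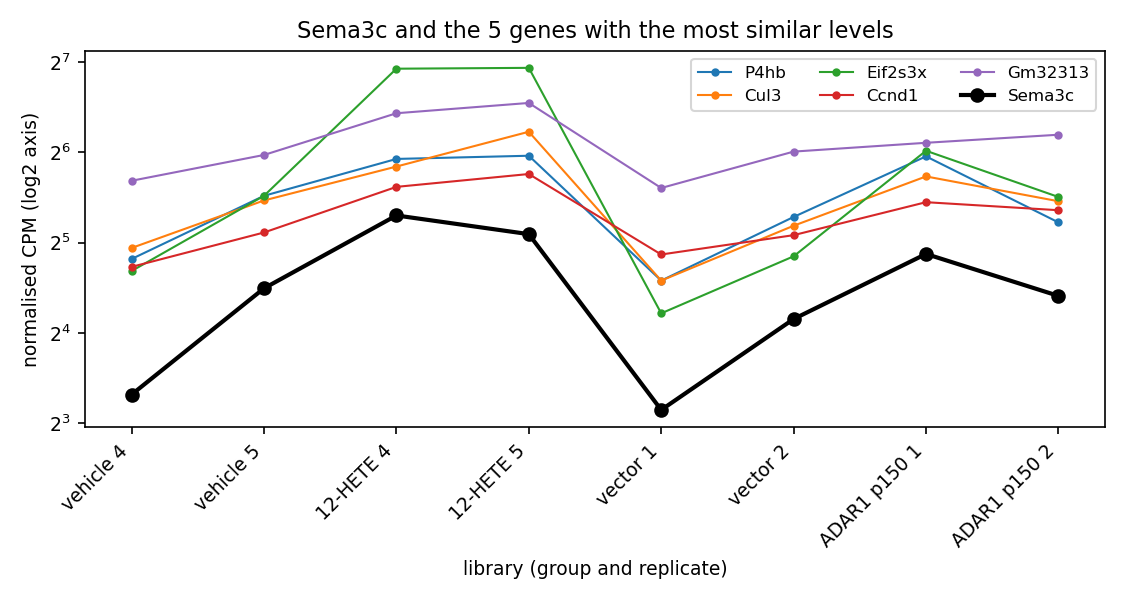
Normalised CPM on a log2 axis (vertical) in each of the 8 libraries (horizontal axis) for Sema3c and the 5 genes most correlated with it; lines join libraries only to guide the eye. Each of the 6 genes is higher in both 12-HETE libraries than in both vehicle libraries, and Sema3c is the lowest in every library.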

How the data were processed

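RNA-seq was made from 8 EO771 libraries. The authors deposited raw counts per gene, without normalisation. Per the study's methods, STAR mapped the reads to GRCm38 and featureCounts assigned them to genes. Duplicate removal by prinseq is described for the editing analysis of these libraries, and whether it preceded the deposited counts is not plainly stated. If it did, abundant genes may be undercounted. The labels and the methods name different extraction and library kits. Each column was matched to a sample by its title.

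The test used the 6901 genes averaging 10 counts or more. A single edgeR 4.0.16 model (R 4.3.3) with TMM factors and 4 group coefficients gave quasi-likelihood p-values, adjusted by Benjamini-Hochberg. "Called" means an adjusted p under 0.05 with 2-fold, and "passed", "rose" and "fell" an adjusted p under 0.05. Alternatives were DESeq2 1.42.0, RLE factors, removal of dominant genes, other count minimums, 4 libraries only, a replicate block and leave-one-out. The crossed block was added after seeing the data. The scripts were tested on simulated data. Replicates differed by more than sampling noise (chi-square per gene 1.63 to 2.77). An exact permutation test of 2 against 2 libraries cannot pass 0.05 and was not made. Positions come from RefSeq (GRCm38.p6), strands and exons from GENCODE M21, and guide sequences from the study's oligonucleotide table. Every member was named, with the called genes and the 2 most abundant tested genes of each list and the 5 genes most like Sema3c. Other genes were named after their values were seen. The members and lists were chosen with earlier results of these data known.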

Additional observations from a re-analysis of the deposited data

Results flagged for a closer look

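For some genes around the members, the effects of 12-HETE and of ADAR1 p150, each against its own control, differed in edgeR's interaction test (12-HETE effect minus ADAR1 p150 effect, log2 scale). Of the 29 tested related genes 5 passed on adjusted p, near the 15.0% of all tested genes. Gm7628 and Lsmem2 are neighbours outside the lists, named after their values were seen. Plxnb1 differed by -2.56 (adjusted p = 5.33e-05) and Gm7628, which overlaps it, by -1.40 (adjusted p = 8.02e-06). The difference was -1.53 for Vegfa (adjusted p = 0.0237), -1.43 for Farp1 (adjusted p = 0.0239), -0.98 for Furin (adjusted p = 0.00144) and -0.72 for Flt1 (adjusted p = 0.0155). Lsmem2, which adjoins Sema3b, differed the other way, by 0.85 (adjusted p = 0.00851). The results for Plxnb1, Gm7628 and Furin passed whichever library was left out, whereas those for Vegfa (-1.87 to -1.09), Farp1 (-1.86 to -0.82), Flt1 (-0.81 to -0.66) and Lsmem2 (0.67 to 1.03) did not pass without some, among them vehicle replicate 5 for each. DESeq2 passed Plxnb1, Gm7628 and Furin but not Farp1 (adjusted p = 0.142), Flt1 (adjusted p = 0.122) or Lsmem2 (adjusted p = 0.0571), and gave no adjusted p for Vegfa. With no count minimum, edgeR did not pass Vegfa, Farp1 or Flt1 (adjusted p = 0.0669, 0.0527 and 0.124). None of the 5 tested members passed this test in edgeR (Plxnb2 alone had an unadjusted p under 0.05), where 15.0% of all genes passed. In DESeq2, Sema3c and Plxnb2 did not pass, and Sema3b, Nrp2 and Plxna1 were given no adjusted p. No member had an unadjusted p under 0.05 there.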

How the results depend on the processing

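Of 681 alternatives for single genes, 569 kept the direction and the side of 0.05. For Sema3c with 12-HETE, DESeq2 gave 1.15 (adjusted p = 0.0819) and leaving out 1 library 0.70 to 1.80 (log2 fold changes throughout, from edgeR unless named). With ADAR1 p150, Sema3c gave 0.51 to 1.51. Plxna1 with 12-HETE passed with 10 counts required in every library (-0.75, adjusted p = 0.0428) and in a fit of 4 libraries (-0.78, adjusted p = 0.0467), and leaving out 1 library gave -1.03 to -0.44. Plxnb2 with ADAR1 p150 no longer passed with DESeq2 (0.46), RLE factors (0.46), without genes over 5% of a library (0.46), with no count minimum (0.41), in a fit of 4 libraries (0.44) or with each 1 of the 4 libraries left out (0.38 to 0.66). Directions reversed only when 1 library was left out, with ranges of -0.089 to 0.027 for Plxnb2 and -0.089 to 0.52 for Gm29083 with 12-HETE, and -0.82 to 0.33 for Sema3b, -0.22 to 1.08 for Nrp2 and -0.59 to 0.14 for Rras2 with ADAR1 p150. They also reversed for vector against vehicle (Sema3b -1.04 to 0.11, Sema3c -0.87 to 0.45, Nrp2 -0.74 to 0.55) and for the difference between effects (Sema3b -0.52 to 0.62, Sema3c -0.34 to 0.95, Nrp2 -0.44 to 0.86). The causes were not tested.

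Replicate numbers did not establish pairs. Over the tested genes, the difference between replicates within the control group was correlated with that within the treated group. This r was -0.078 (12-HETE) and -0.112 (ADAR1 p150), with 2 pairs per experiment. With the replicate block, 942 and 813 genes were called, and Plxnb2 with ADAR1 p150 was at 0.52 (adjusted p = 0.0725). The crossed block, added after seeing the data, called 921 genes with ADAR1 p150 and gave 0.93 for Sema3c there (adjusted p = 0.0289).

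Over all genes, 991 were called with 12-HETE, 884 with ADAR1 p150 and 575 for the difference. Adjusted p alone gave 2021, 1766 and 1033, DESeq2 590, 434 and 249, and 10 counts in every library, which tests fewer genes, 481 with 12-HETE and 429 with ADAR1 p150. Vector against vehicle called 3, with 8 on adjusted p alone, 6 with RLE factors, 8 without genes over 5% of a library, 11 with no count minimum, 1 in 4 libraries and 2 to 20 without 1 library. It called 0 with DESeq2 (232 at an unadjusted p under 0.05) and 0 in edgeR with 10 counts in every library (540 at an unadjusted p under 0.05). Of the related genes, 4 were called with 12-HETE, 10 on adjusted p alone, 1 with DESeq2, 2 with 10 counts in every library and 2 to 5 without 1 library. With ADAR1 p150 these were 1, 2, 0, 0 and 0 to 1, and 0 with no count minimum (at an unadjusted p under 0.05, DESeq2 had 1, edgeR 6 with 10 counts in every library and 11 with no minimum). Sema3b and Nrp2 could not be tested with 10 counts in every library, and DESeq2 gave no adjusted p for Sema3b with ADAR1 p150. Depth is a limit for the members: 5 of 10 had too few counts to test, and the 95% interval for Nrp2 with 12-HETE ran from -0.15 to 1.43.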
